A study of Mus musculus with 6 samples.

Results

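The transglutaminase gene Tgm3 was examined together with 9 genes that mark stratified squamous epithelium: the keratins Krt1, Krt4, Krt5, Krt10, Krt13 and Krt14, the envelope protein gene Ivl, the transcription factor gene Trp63 and the desmosomal cadherin gene Dsg3. These 10 genes, of 23462 that could be named on the array, were taken by symbol, with every probe matched to them through its RefSeq accession. They had 13 probes, 2 each for Tgm3, Krt13 and Trp63 and 1 for each of the other 7 genes. Tgm3 was selected on its knockout-minus-control difference on these arrays, and the squamous genes were set beside it with earlier results of the same comparison known. Their differences between the genotypes are therefore given as a description, with no p-value.

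The samples were colons of 6 male mice on 1 single-colour Agilent array each, 3 labelled control and 3 labelled Islr knockout. The sample source describes 3.5% dextran sulfate sodium (DSS, which damages the lining of the colon) given by drinking water over 5 days, followed by 1 day of recovery, in both groups, whereas the treatment field states no treatment. The design text calls the samples flow separated and names no gate. Strain, age, the kind of knockout allele and the part of the colon are not given in the sources used here. Nothing in the labels says that the animals were pooled.

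Stratified squamous epithelium lines the skin, mouth, oesophagus, forestomach and anal canal and meets the single-layered epithelium of the colon at the anorectal junction. Its basal cells are held in their state by the transcription factor p63 (Trp63) and contain the keratin pair 5 and 14. Cells that leave the basal layer switch to keratins 1 and 10 in cornified epithelium such as epidermis, or to keratins 4 and 13 in moist mucosa. Transglutaminases then cross-link involucrin (Ivl) and other proteins into the cornified envelope under the cell membrane, and desmosomes with desmoglein 3 (Dsg3) join neighbouring cells. The comparison asked whether these squamous genes were measured in the colon samples and whether they differed between the genotypes where Tgm3 did.

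RefSeq promoter windows of mouse build GRCm38.p6, from 250 bases before to 50 bases after a transcription start, were at hand for 6 of the 10 genes. The windows of Tgm3 (chr2:130012090-130012389, plus strand) and Krt14 (chr11:100205981-100206280, minus strand) are shown because these were the genes whose signals differed most between the genotypes.
Tgm3: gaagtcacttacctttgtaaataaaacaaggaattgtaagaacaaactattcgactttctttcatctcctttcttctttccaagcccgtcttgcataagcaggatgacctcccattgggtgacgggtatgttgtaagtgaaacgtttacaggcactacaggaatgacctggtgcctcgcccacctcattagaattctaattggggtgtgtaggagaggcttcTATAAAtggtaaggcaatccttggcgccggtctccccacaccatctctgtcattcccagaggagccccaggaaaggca
Krt14: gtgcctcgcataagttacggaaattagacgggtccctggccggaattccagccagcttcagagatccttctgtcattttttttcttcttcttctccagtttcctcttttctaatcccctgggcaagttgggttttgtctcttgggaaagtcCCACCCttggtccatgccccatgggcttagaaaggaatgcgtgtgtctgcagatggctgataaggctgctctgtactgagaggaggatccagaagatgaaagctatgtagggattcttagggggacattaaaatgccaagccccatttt
Capitals mark matches, on either strand, to the TATA box (TATAAA), a CDX core (TTTATG), a pair of p63 half-site cores (CATG, 6 bases of any kind, CATG), the AP-1 motif (TGANTCA) or a KLF core (CCACCC). The capitals of Tgm3 are a TATA box from -28 to -23, and those of Krt14 a KLF core from -99 to -94, counted from the transcription start. A TATA box was in 13.6% of all windows in the RefSeq table, a CDX core in 11.9%, the p63 pair in 0.712%, AP-1 in 7.81% and a KLF core in 31.5%. These matches describe the letters of the windows and no binding.

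Values below are the processed signal as log2 after division by the 75th percentile of its array, so 0 is that percentile. The percentile lay between 4910.5 and 7110.5 units, and the scanner software rated 69.4% to 75.4% of an array's spots as well above background. All arrays shared a slide, with controls in one row and knockouts in the other, so slide row and genotype cannot be told apart. The Islr probe was 2.44 lower in the knockout (SE 0.21, limma adjusted p 0.0171), from a mean of 1.22 to a mean of -1.21. In bulk RNA, from tissue or from sorted cells as the design text has it, fewer cells of a type and less RNA per cell cannot be told apart.

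Tgm3 encodes transglutaminase 3, which cross-links proteins in the cornified envelope and the hair shaft. The probe with the higher mean over all 6 arrays (A_51_P495560, called the brighter probe below) read, in order of replicate number, -2.76, -4.57 and -2.504 in the controls and 1.99, 0.35 and 1.06 in the knockouts; the same order is used below. Every knockout lay above every control, and all 6 arrays were well above background. The groups averaged -3.28 ± 1.13 and 1.13 ± 0.82 (SD, n = 3 each), a difference of 4.41 (SE 0.64), or 21.3-fold. The processed signal of this probe reached 19510 units over a local background of 42 to 69 units.

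The other Tgm3 probe (A_55_P2163493) gave a smaller difference, and read higher than the first in every control, so the first is the brighter only through the knockouts. It read -2.22, -1.96 and -1.17 in controls and -0.03, -1.24 and -0.79 in knockouts. Its groups overlapped, because knockout replicate 2 lay below control replicate 3. The difference was 1.09 (SE 0.39), or 2.13-fold. Both probes were highest in knockout replicate 1, and they carry the same RefSeq transcript accession. The files hold no probe sequences, so what sets the probes apart was not tested.

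Trp63, the regulator of the basal layer, was measured by 2 probes that disagreed. The first (A_51_P216550) read -6.73, -8.19 and -8.07 in controls and -7.64, -7.88 and -7.89 in knockouts, and was not well above background on any array. The other probe (A_55_P2161055) read 3.29, 2.99 and 3.35 in controls and 3.47, 3.30 and 3.27 in knockouts, with processed signals of 54400 to 66650 units. Its groups overlapped, with a difference of 0.14 (SE 0.16) that was -0.03 under quantile normalization. The probes carry different RefSeq transcript accessions in the files, and why they disagree was not tested. Whether Trp63 was above background thus depended on the probe.

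The basal keratins Krt5 and Krt14 form a filament pair, and their differences had opposite signs. Krt5 read -4.03, -4.01 and -4.96 in controls and -6.04, -4.22 and -3.80 in knockouts, so the groups overlapped. Knockout replicate 1 had the lowest value and was the only array on which Krt5 was not well above background. The difference was -0.35 (SE 0.60), and it was 0.32 without that array and 0.02 with array weights.

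Krt14 read -3.24, -2.93 and -3.10 in controls and -1.81, -2.67 and -1.09 in knockouts. All 6 arrays were well above background and the groups did not overlap. The means were -3.09 ± 0.16 and -1.86 ± 0.79 (SD, n = 3 each), a difference of 1.23 (SE 0.38), or 2.35-fold. Without knockout replicate 3, the highest array, the difference was 0.85. Krt14, Krt16 and Krt17 are close relatives among type I keratins, and capture of related transcripts by the Krt14 probe was not tested.

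Krt4 and Krt13 pair in the upper layers of moist squamous mucosa. Krt4 read -3.73, -3.46 and -2.97 in controls and -2.86, -2.71 and -2.62 in knockouts, well above background throughout. The groups did not overlap, although the gap between control replicate 3 and knockout replicate 1 was small, and the difference was 0.66 (SE 0.22).

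Krt13 varied more within each genotype than between them. Its brighter probe (A_55_P2006296) read -5.66, -4.76 and -3.01 in controls and -4.63, -3.68 and -2.48 in knockouts. A dimmer probe (A_52_P430886) read -6.36, -5.60 and -3.98 in controls and -5.61, -4.47 and -3.47 in knockouts, and was well above background on 2 arrays of each group. On both probes knockout replicate 3 was highest, control replicate 3 next and control replicate 1 lowest. The brighter probe differed by 0.88 (SE 0.78), and by 0.29 without control replicate 1 and 1.61 without control replicate 3.

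Krt1 and Krt10 mark cells that have left the basal layer of cornified epithelium. Krt1 read -5.27, -5.78 and -6.32 in controls and -6.12, -5.85 and -5.62 in knockouts. It was well above background in control replicates 1 and 2 and in no knockout, so it was not tested, and its groups overlapped. Krt10 read -0.35, -0.47 and -0.65 in controls and -0.27, -0.34 and -0.21 in knockouts. These Krt10 groups were barely separated, and the values of control replicate 1 and knockout replicate 1 came from spots marked as outliers. Without those spots the difference was 0.28 (SE 0.21, n = 2 each).

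Ivl encodes involucrin, an early component of the envelope and a transglutaminase substrate. It read -5.12, -4.34 and -3.97 in controls and -4.30, -3.99 and -3.94 in knockouts. All 6 arrays were well above background and the groups overlapped, with a difference of 0.40 (SE 0.31) that was 0.08 without control replicate 1.

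Dsg3 encodes a desmosomal cadherin of squamous basal cells. Its probe was not well above background on any array, with processed signals of 23.5 to 24.6 units on all 6. On the scaled axis it read -8.05, -8.19 and -8.11 in controls and -7.71, -7.89 and -7.88 in knockouts. That separation followed the division by a lower percentile on the knockout arrays, since the unscaled signals were nearly equal.

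**Figure D1:**
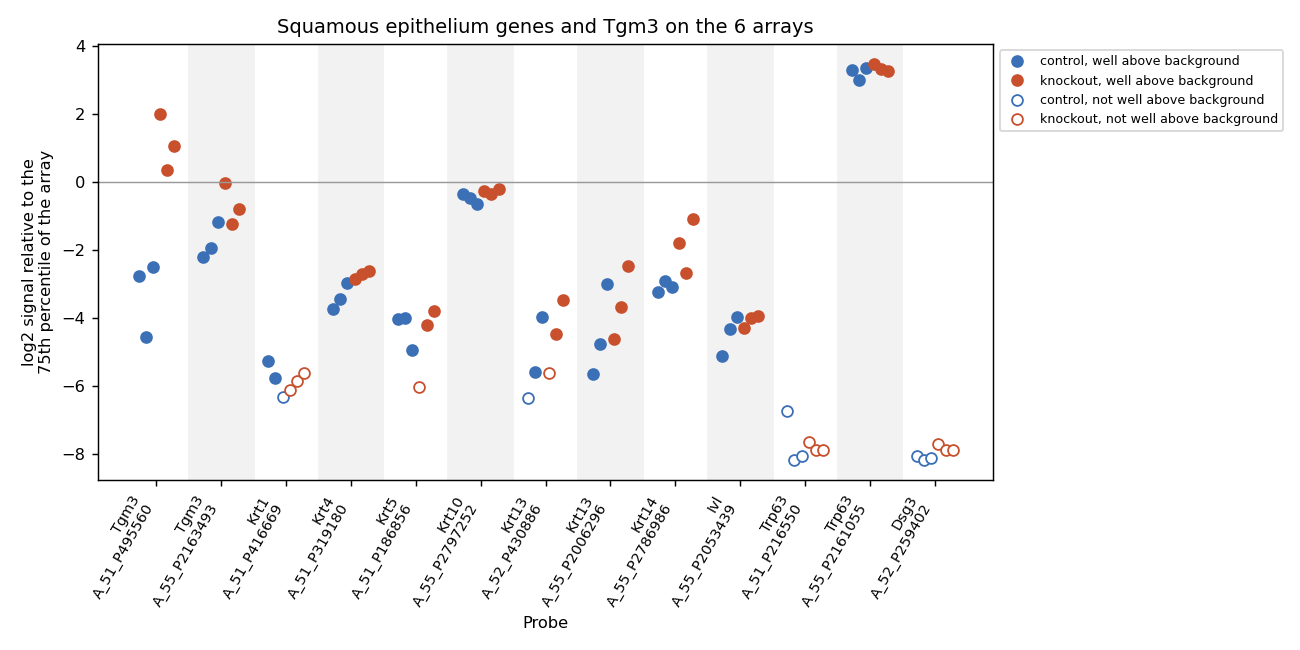
Log2 signal over the 75th percentile of each array (vertical axis) for the 13 probes of the 10 genes (horizontal axis), with 1 point per array, controls in blue and knockouts in red, replicates 1 to 3 from left to right. Open points were not well above background. The brighter Tgm3 probe has group means 4.41 apart and no overlap of its points. Points of the other Tgm3 probe and of Krt1, Krt5, Krt13, Ivl and Trp63 overlap.

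Of the 10 genes 7 were well above background on all 6 arrays by at least 1 probe, Krt1 and Krt5 on some arrays and Dsg3 on none. Among all named genes 71.5% were so on all arrays and 17.7% on none. Only 8 of the 10 passed the filter on dim probes, which a probe passes when every array of at least 1 genotype is well above background. Tgm3 was the only gene of these 8 past a 5% false discovery rate in limma, against 3.82% of all 16451 tested genes (1.35% higher in the knockout). Counted by probe, 1 of the 9 tested probes of these genes passed, against 3.97% of all tested probes (1.55% higher in the knockout). The groups did not overlap for 4 of the 8 (Tgm3, Krt4, Krt10 and Krt14), all higher in the knockout, where 38.2% of all tested genes showed no overlap and 19.0% lay higher; among all probes with usable values on the 6 arrays 34.5% showed no overlap. The 8 differences ran from -0.35 to 4.41 with a median of 0.53, against 0.01 over all tested genes. As the genes were chosen with this comparison known, nothing is read from these counts.

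The summed signal of 7 squamous markers (Krt1, Krt4, Krt5, Krt13, Krt14, Ivl and Dsg3) was 32.1%, 39.2% and 48.0% of the array's 75th percentile in controls and 54.9%, 52.6% and 97.3% in knockouts. The sum was higher on every knockout array, by 1.72-fold in the ratio of means, and highest in knockout replicate 3. Under normexp, quantile normalization and median scaling the ratio was 1.64, 1.74 and 1.76, and the groups stayed apart. With an array left out the log2 of the ratio ran from 0.43 to 0.94. Krt10 and the bright Trp63 probe outweigh the rest, and with them the sum over 9 markers overlapped, at 907.6% to 1131% in controls and 1119% to 1246% in knockouts. The array with the highest sum of 7 markers was not the array with the highest Tgm3, which was knockout replicate 1. Control replicate 3 and knockout replicates 1 and 2 had similar sums, 48.0% to 54.9%, while their Tgm3 signals were -2.504, 1.99 and 0.35. On every knockout array Krt14 had the highest signal of the 7 (-1.81, -2.67 and -1.09), so it weighed most in the sum there. Without Krt14 the sum in knockout replicate 1 lies below that in control replicate 3, so the separation of the groups rests on Krt14. Whether squamous tissue in the samples had a part in the Tgm3 difference was not tested.

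Other keratins of stratified epithelium were compared next. Of 13 listed 10 were tested. In limma at a 5% false discovery rate 1 was called, Krt17, a keratin of hair follicles and of injured epidermis. It rose by 2.21 (SE 0.29, adjusted p 0.0260), from -1.44, -1.85 and -2.03 in controls to -0.06, 0.89 and 0.47 in knockouts, with no overlap. The call was lost when control replicate 2 (adjusted p 0.0764), control replicate 3 (0.0718) or knockout replicate 3 (0.0767) was left out. The list had a median difference of 0.46 with 7 of 10 above 0, where 51.2% of all tested genes lay above 0.

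The genes below were picked after their values were seen. Krt24 (1.94, adjusted p 0.0887), Krt78 (1.66, adjusted p 0.0600) and Krt15 (1.18, adjusted p 0.0640) did not pass in limma. They were higher in every knockout than in any control, as were 19.0% of all tested genes. The tested keratins of the list below 0 were Krt80 (-0.73, adjusted p 0.557), Krt2 (-0.42, adjusted p 0.287) and Krt77 (-0.125, adjusted p 0.741). Their groups overlapped. Among controls Krt78 was well above background in replicate 3 only, so it passed the filter on dim probes through the knockouts. Krt6a and Krt6b, keratins of wounded and mucosal epithelium, were highest in knockout replicate 3, at -3.51 and -3.08. On the other 5 arrays they read -7.96 to -5.78 and -6.58 to -5.21, with 1 of these values well above background, that of Krt6b in knockout replicate 2. The brighter Krt16 probe ran from -3.73 in control replicate 1 to -2.03 in knockout replicate 3, with overlapping groups.

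The cornified envelope list holds structural proteins, enzymes and associated genes of the outer squamous layers. Of 32 genes 31 had a named probe and 19 were tested, with a median difference of 0.46 and 11 of 19 above 0. None passed a 5% false discovery rate in limma, while 10 had an unadjusted p under 0.05, as did 28.2% of all tested genes. The 2 brightest by the naming rule were Sfn, a 14-3-3 protein gene (0.83, adjusted p 0.125), and Ly6d, a cell surface protein gene (-0.20, adjusted p 0.811). No probe of Sprr1b, Sprr2d, Sprr2f, Sprr3, Flg2, Hrnr, Rptn, Calml3, Lce1a1, Lce3a or Lce3c was well above background on any array.

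Chosen after their values were seen, the larger differences of this list went both ways. Casp14, a caspase of keratinocyte differentiation, was higher by 3.36 (SE 0.71, adjusted p 0.0530), from -4.48, -6.21 and -4.89 in controls to -1.20, -3.31 and -0.99 in knockouts. Evpl, which encodes the desmosomal and envelope protein envoplakin, was higher by 2.05 (SE 0.46, adjusted p 0.0590), and Scel, for sciellin, by 1.83 (adjusted p 0.0633). None of these passed in limma. Their groups did not overlap, as in 38.2% of all tested genes (19.0% with the knockout higher). Casp14 was not well above background in control replicate 2. Of the dimmer Scel probes, A_66_P115455 differed by 1.17 without overlap and A_51_P349751 by 0.43 with overlap. Tgm1, also in this list, differed by -1.92 (adjusted p 0.0592).

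Krtdap, a secreted protein gene of stratified epithelium, stood out in a control. Its probe A_55_P2744262 read -3.87 in control replicate 3 and -8.13 to -7.55 on the other 5 arrays, where it was not well above background. The other Krtdap probes (A_51_P146223 and A_66_P107293) were also highest in control replicate 3, at -3.68 and -2.37, although A_66_P107293, the brightest of them, was well above background on 5 of the 6 arrays. Control replicate 3 was also the highest control for Krt13, Krt4, Krt16 and Ivl, but the lowest for Krt5, Krt1, Krt10 and Krt17. Its signal at the brighter Tgm3 probe, -2.504, was the highest of the controls and below every knockout.

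**Figure D2:**
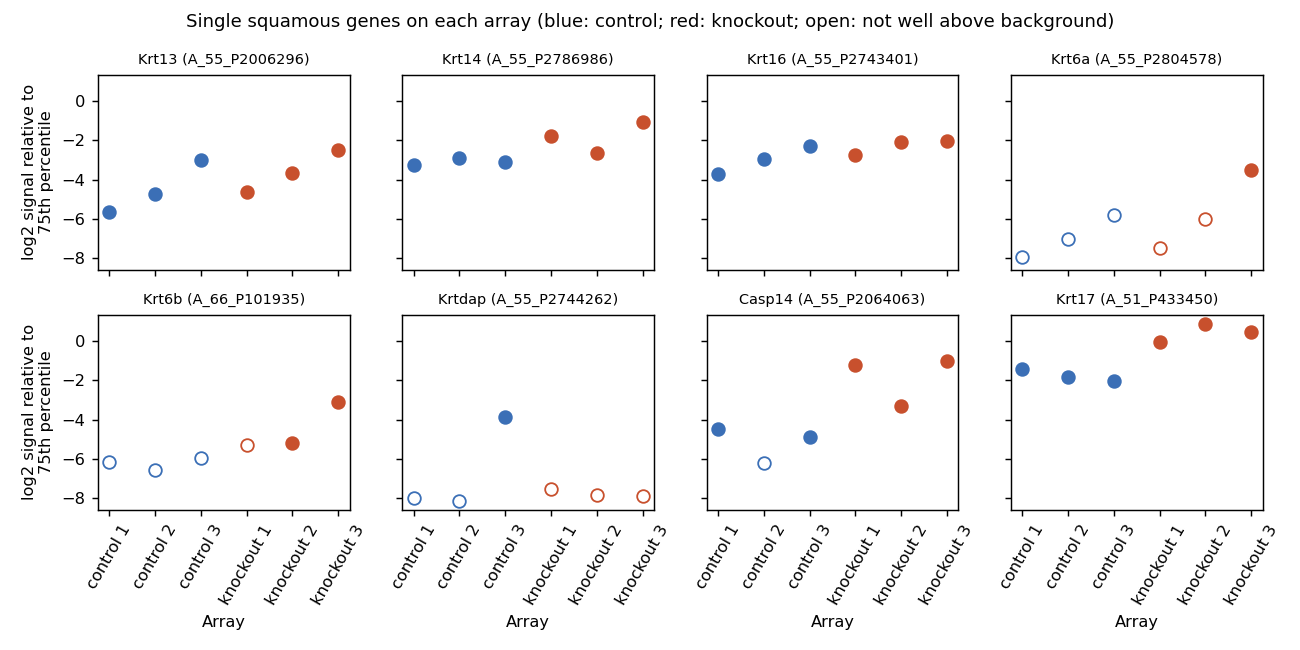
Log2 signal over the 75th percentile of each array (vertical axis) on each of the 6 arrays (horizontal axis) for 8 squamous genes, controls in blue and knockouts in red, open points not well above background. Points of Krt14, Krt17, Casp14 and Krt6b do not overlap between the genotypes, although Krt6b was not well above background in any control. Krt6a and Krt6b are highest in knockout replicate 3. This Krtdap probe, 1 of 3 and not the brightest, is above background in control replicate 3 alone.

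Among the other transglutaminases that could be tested, F13a1 and Tgm1 were lower in the knockout, while Tgm2 and Tgm4 differed by less than their standard errors. The list had 8 relatives, including the blood clotting subunit gene F13a1 and the membrane protein gene Epb42. Of these 4 were tested, and all 4 had differences below 0 at their brightest tested probe. F13a1 fell by 1.93 (SE 0.34, limma adjusted p 0.0402), from 1.02, 0.40 and -0.15 in controls to -1.95, -1.24 and -1.35 in knockouts. Its adjusted p was 0.0623 with no filter on dim probes and 0.0512 to 0.109 in 5 of the 6 fits with an array left out. Tgm1, the membrane-bound keratinocyte enzyme, read -0.69, -0.26 and -0.54 in controls and -3.44, -1.96 and -1.83 in knockouts. Its groups did not overlap, with a difference of -1.92 (SE 0.43) that did not pass (adjusted p 0.0592). Tgm2, the widely expressed tissue transglutaminase, differed by -0.16 (SE 0.17, adjusted p 0.588), and Tgm4 by -0.02 (SE 0.15). A dimmer Tgm4 probe was higher in the knockout by 0.615 (SE 0.44, adjusted p 0.405), with overlapping groups. The median of the 4 was -1.04, and it was -0.16 without control replicate 2, -0.23 without knockout replicate 2 and 0.13 when dim probes were kept.

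Desmosome and hemidesmosome genes are shared by squamous and single-layered epithelium. All 10 tested desmosome genes lay above 0 (51.2% of all tested genes did), with a median of 1.34. None passed in limma, and 5 had an unadjusted p under 0.05, as did 28.2% of all tested genes. The brightest were Perp (1.11, adjusted p 0.248) and Pkp2 (0.65, adjusted p 0.212). Of the partners of Dsg3, the genes Dsg1a and Dsg1b were not well above background on any array, and Dsg1c was so at 1 of its 2 probes in knockout replicates 2 and 3 only. Other genes of the list were measured: Dsc3 was well above background on all 6 arrays at its brightest probe (0.28, adjusted p 0.617). Pkp1 was so in every knockout and in control replicate 3 (2.70, adjusted p 0.168). Both were chosen after their values were seen. The desmoglein gene of simple epithelia, Dsg2, was well above background on all 6 (2.55 at its tested probe, adjusted p 0.103, chosen after its values were seen). A brighter Dsg2 probe (A_55_P2911445) had too few usable spots to be tested. With outlier spots kept that probe differed by only 0.89. Of the 10 hemidesmosome and basal-layer genes 8 lay above 0 (51.2% of all genes), with a median of 0.95. None was called in limma by its brightest probe and 7 had an unadjusted p under 0.05 (28.2% of all genes). Plec, which links keratin to hemidesmosomes, differed by 0.50 at its brightest probe (adjusted p 0.145) and rose by 1.20 at a dimmer probe (adjusted p 0.0484). Dst, for a relative of plectin, differed by 0.12 (-0.03 under quantile normalization).

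Transcription factors of squamous epithelium gave a median of 0.19 over 11 of 14 tested, with 7 above 0. Leaving out an array moved that median to between 0.015 (knockout replicate 3 left out) and 0.337 (knockout replicate 1 left out). The only call was Tfap2a, an AP-2 factor of skin and of neural crest. Its brightest probe was well above background on every control and on no knockout. The signal was at least 1.08-fold higher in controls (adjusted p 0.0468 in limma, measured means -5.39 and -6.73). This bound takes, for each knockout array, the dimmest signal rated well above background, or the Tfap2a signal if that is brighter. It did not pass under normexp, with no filter on dim probes or in any of the 6 fits with an array left out.

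Genes of the colon's own epithelium were set beside the squamous ones on the same arrays. All 17 tested colon surface genes lay above 0 (51.2% of all genes), with a median of 1.58, or 0.77 without control replicate 2, and a range of 0.47 to 3.69. None passed in limma (3 did without control replicate 1 and 10 with array weights), and 6 had an unadjusted p under 0.05, against 28.2% of all genes. The brightest were Guca2a, for the peptide guanylin (0.79, adjusted p 0.311), and Lypd8, for a secreted antibacterial protein (0.47, adjusted p 0.384). The 6 simple-epithelium keratins also all lay above 0, with a median of 0.83, or 0.31 without control replicate 2, and none passed in limma (2 at an unadjusted p under 0.05). Krt8 differed by 0.68 and Krt19 by 0.85 (adjusted p 0.373 for each). Both lists were lowest in control replicate 2, the array with the lowest Tgm3 signal at its brighter probe.

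Per array, the mean log2 signal of the 17 surface genes was 2.09, -0.46 and 1.19 in controls and 2.71, 2.47 and 2.47 in knockouts. Tgm3 at its brighter probe, minus that mean on the same array, was -4.85, -4.11 and -3.69 in controls and -0.72, -2.12 and -1.41 in knockouts. These values did not overlap, and averaged -4.22 ± 0.59 and -1.42 ± 0.70 (SD, n = 3 each), 2.80 apart. Set against the 6 simple-epithelium keratins the distance was 3.28. Because Tgm3 was selected on its difference, these distances are a description, and single genes of the surface list reached 3.69. The part of epithelial content in the Tgm3 difference was not tested. The summed signal of the 17 genes was 2581% to 8711% of the 75th percentile in controls and 10480% to 12580% in knockouts.

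**Figure D3:**
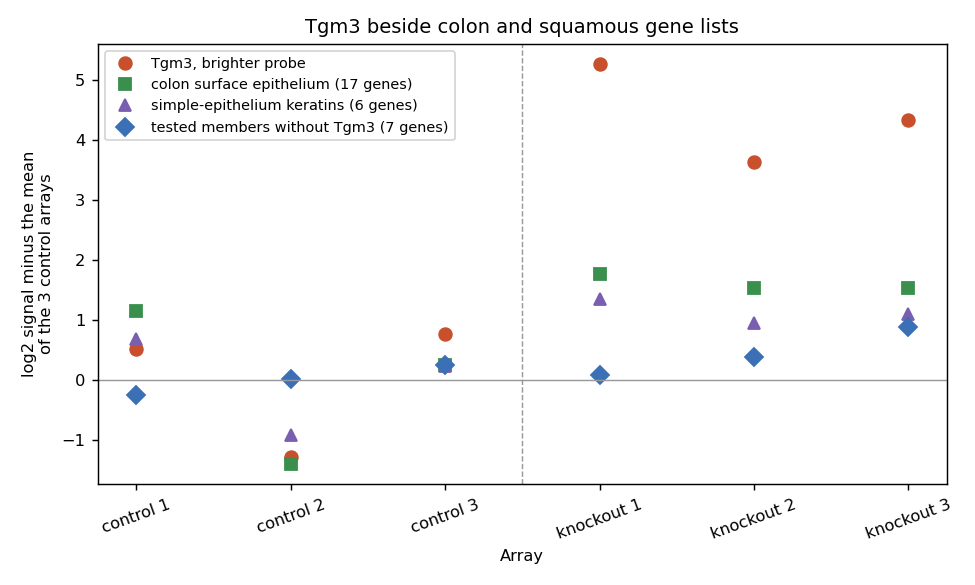
Log2 signal on each array minus the mean of the 3 control arrays (vertical axis) for the brighter Tgm3 probe and for the means of 17 colon surface genes, 6 simple-epithelium keratins and the 7 tested squamous genes, by array (horizontal axis). Tgm3 and the colon lists are lowest in control replicate 2, and Tgm3 lies above each of the list means on all knockout arrays.

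**Figure D4:**
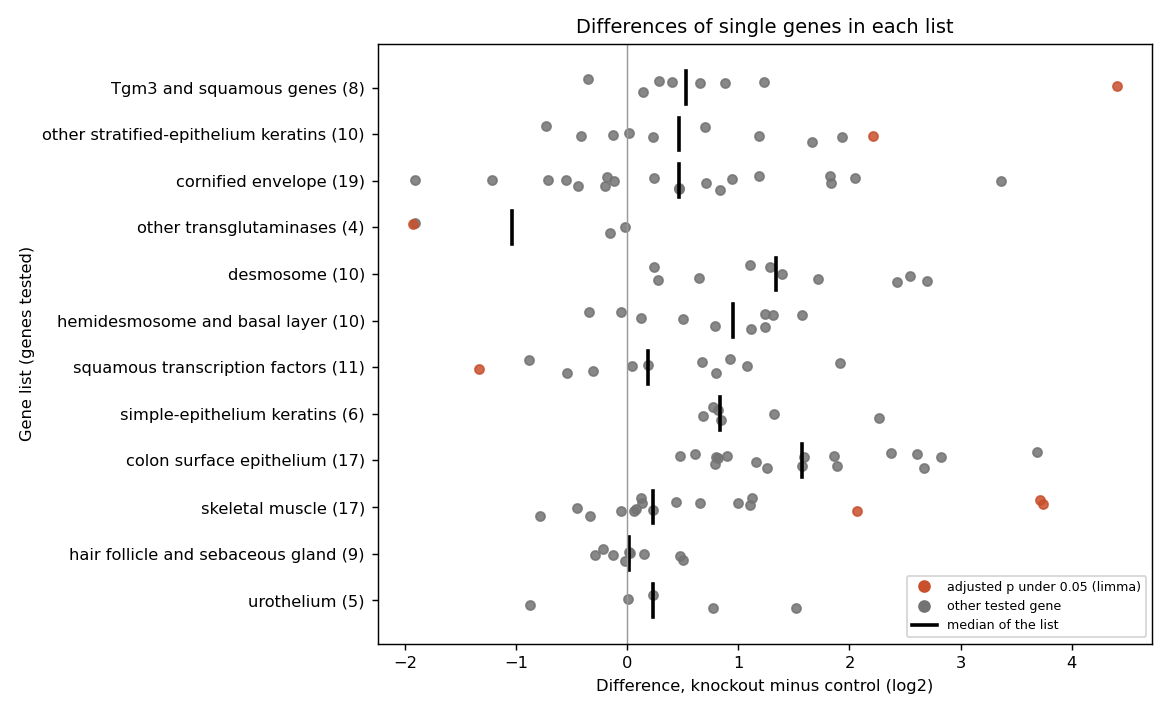
Difference between knockout and control on the log2 scale (horizontal axis) for each tested gene of the lists (vertical axis, with the number tested), 1 point per gene at its brightest tested probe. Red points passed an adjusted p under 0.05 in limma and black bars are medians. The colon surface, desmosome and simple-keratin points all lie above 0, while the other transglutaminases all lie below it.

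Genes with a pattern like that of Tgm3 were looked for over all arrays. Likeness was measured as the root-mean-square distance between log2 signals over the 6 arrays, each probe centred on its own mean. It was taken among 19519 probes of other named genes with usable values on all 6 arrays. These probes were well above background on at least 3 arrays, so a probe could enter through the knockouts alone. A probe with no change at all would lie at 2.35, so the measure mostly reflects how far a gene shares the difference on which Tgm3 was selected. The closest were Gm15401 (distance 0.47), the carcinoembryonic antigen relative Ceacam18 (0.52), the slow skeletal muscle troponin gene Tnni1 (0.54), the tubulin ligase-like gene Ttll6 (0.55) and 4930415O20Rik (0.56). Of the 9 squamous marker genes Krt14 was nearest, at 1.81, and Krt5 farthest, at 2.77, and the other Tgm3 probe was at 1.77. In the cornified envelope list Casp14 lay at 0.75 and Evpl at 1.24. Genes of other lists lay between them, among them Slc26a3 (0.78) and Mep1a (1.07) of the colon surface list. Dsg2 of the desmosome list (0.99 at its tested, dimmer probe) and Krt23 of the simple-epithelium keratins (1.03) did so too. These genes of the lists were chosen after their values were seen. Ceacam18 was picked for its likeness, so a shared shape follows from that choice. It read -3.30, -5.90 and -3.75 in controls and -0.21, -1.50 and -0.45 in knockouts, lowest in control replicate 2 and highest in knockout replicate 1 like Tgm3. Its value in control replicate 2 was below -5.865, the dimmest signal rated well above background on that array.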

How the data were processed

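Scans of Agilent design 074809 were quantified by the authors in Feature Extraction 11.5.1.1, as the deposited file headers state; the submitters' processing notes give version 10.7. The labels name Cy3 and a green column, but the deposited files hold red columns, which were used. The deposited processed signal is an intensity on a linear scale, per the file headers, and totals differ between arrays. A deposited table of the series repeats these deposited intensities (log2 correlation of at least 0.999999 on every array).

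The signal was converted to log2 and the 75th percentile of the non-control spots subtracted. Outlier spots (3.26% to 16.0% of an array) were missing in the fit; per-array values and sums keep them. A probe was tested if well above background on all arrays of a genotype with at least 2 usable values in each group (35351 of 56605 probes). Genotype was the only term in limma 3.58.1 under R 4.3.3, with Benjamini-Hochberg adjustment over all tested probes, and 1403 probes (3.97%) were called. The brightest tested probe stood for a gene. In data simulated for the genotype comparison (35351 probes), changes of 1, 2 and 4 on the log2 scale were recovered in 13.6%, 55.2% and 89.6% of cases. RefSeq names (GRCm38.p6) matched 33767 probes; the files place probes on another build, mm9. Precision is limited by the number of arrays, 3 per genotype, and whether the animals were littermates is not stated.

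The genes, lists and tests were chosen with earlier results of these data known. Named genes were the 10 genes above, Islr, up to 4 called genes of a list (otherwise its 2 brightest) and the 5 nearest patterns to Tgm3; others are marked in the text. Alternatives were normexp (offset 50), quantile and median scaling, outlier spots kept, no or a stricter filter, array weights, the value table, mean over probes and each array left out.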

Additional observations from a re-analysis of the deposited data

How the results depend on the processing

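The Tgm3 difference at its brighter probe stayed between 3.77 and 4.80 when an array was left out and between 4.10 and 4.77 under the other alternatives, and the median of the tested squamous set and Tgm3 between 0.29 and 0.86 and between 0.48 and 0.66. The number of called probes was 2558 under normexp, 2185 under quantile normalization, 2249 under median scaling, 484 with no filter on dim probes, 8119 with array weights and 40 to 2114 with an array left out. Of the 113 tested genes in the 11 other lists 6 were called, where 3.82% of all tested genes were; the count was 13 under normexp, 12 under median scaling, 10 with outlier spots kept, 53 with array weights and 1 to 14 with an array left out (fewest when knockout replicate 3 was missing, most when control replicate 1 was; leaving out control replicate 2 gave 3 and control replicate 3 gave 2). The median of the transglutaminases was 0.13 with no filter on dim probes and -1.118 to -0.164 with an array left out; that of desmosome genes was 1.70 with array weights and 0.995 to 1.508 with an array left out; that of squamous transcription factors was 0.49 with outlier spots kept. Small differences changed sign: Dst was -0.031 under quantile normalization, Krt79 -0.043 with array weights, and with an array left out Krt79 ranged from -0.074 to 0.1, Soat1 from -0.427 to 0.17 and Ly6d from -0.629 to 0.107. The medians of the other stratified keratins and of the cornified envelope ranged from 0.07 (without knockout replicate 3) to 0.76 and from 0.09 (without knockout replicate 1) to 0.51 with an array left out. The cause was not tested. The share of called genes that were higher was 35.4%, 46.2% under normexp, 53.3% with array weights, and, with an array left out, from 12.5% (knockout replicate 3) through 19.2% (knockout replicate 1) to 58.5% (control replicate 1). Krt10 and Dst had too few usable spots for a value in some fits with an array left out, and Tfap2a had none under the stricter filter. No paired analysis was possible because the labels give no replicate numbers that the groups share. Probes near the floor, such as Dsg3, the first Trp63 probe and Krt1, limit what can be said of those genes.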

Other observations

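The anal canal is ringed by striated sphincter muscle, and hair follicles lie in the skin around it, so lists for both were measured on the same arrays. Of 17 tested skeletal muscle genes 3 rose in limma, against 1.35% of all tested genes: Myh2, a fast myosin heavy chain gene (at least 4.61-fold higher in knockouts, not well above background in any control, adjusted p 0.0103), Tnni1, the slow troponin I gene (3.72, SE 0.40, adjusted p 0.0184), and Myh1, another fast myosin gene (2.07, SE 0.19, adjusted p 0.0160). The called Myh2 probe passed the filter on dim probes through the knockouts. The other Myh2 probe (A_55_P2744634) was not well above background on any array and was not tested. Its groups overlapped, with a difference of -0.07. The Myh1 call was lost without control replicate 3 (adjusted p 0.0531) or knockout replicate 3 (0.0530), and that of Tnni1 without control replicate 2 (0.0524) or knockout replicate 3 (0.0565). The list median was 0.23, with 13 of 17 above 0. With an array left out it ran from 0.12 (without control replicate 1 or knockout replicate 3) to 0.385. The groups did not overlap for 6 genes higher and 2 lower in the knockout, where 38.2% of all tested genes showed no overlap (19.0% higher). The 2 lower were Atp2a1 (-0.455, limma adjusted p 0.167) and Actn3 (-0.787, adjusted p 0.181). Acta1, chosen after its values were seen, differed by 0.13 (adjusted p 0.847).

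Of 9 tested hair follicle and sebaceous genes, none passed in limma and 0 had an unadjusted p under 0.05; the median was 0.01, with Soat1 at -0.13 (SE 0.33) and Krt79 at 0.01 (SE 0.16). Of 5 tested urothelial genes none passed in limma and 0 had an unadjusted p under 0.05; the median was 0.23 (0.06 to 0.53 with an array left out), with Krt7 at 0.77 (SE 0.42) and Upk1a at 1.52 (SE 0.67).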
